A study of Mus musculus with 6 samples.

Results

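The cytosolic ribosomal protein genes encode the protein part of the ribosome, the machine that translates mRNA into protein. They were followed here in satellite cells, which repair skeletal muscle as its stem cells, with and without the proteasome subunit Rpt3. The genes were chosen by name: every small subunit (Rps) and large subunit (Rpl) gene name on the array, with Rplp0, Rplp1, Rplp2 and Rpsa, and without the S6 kinases and the ubiquitin fusion gene Rps27a. This gave 80 of the 34797 gene names and unnamed probes on the array, 31 of the 40S subunit and 49 of the 60S subunit. The knockout samples were satellite cells sorted from 3 C57BL6 mice in which Rpt3, the product of Psmc4, was knocked out in satellite cells. The control samples were satellite cells from 3 control C57BL6 mice. The age of the mice, the full genotype of the controls and the promoter that drives the recombinase are not given in the sources used here. From each mouse, a transcriptome-wide amplification of 5 ng of total RNA was labelled with Cy3 and hybridized to 1 Agilent array, so each group holds 3 arrays.

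The mammalian ribosome has a small 40S subunit, which reads the mRNA, and a large 60S subunit, which joins amino acids. Nearly every one of its proteins is needed in equal number, and cells make their mRNAs in large and balanced amounts. Many of these mRNAs begin with a 5′ terminal oligopyrimidine (TOP) tract, a C followed by a run of C and T, through which mTOR and the RNA-binding protein LARP1 control their translation more than their amount. Surplus ribosomal proteins that do not enter a ribosome are destroyed by the proteasome. Some of them, above all the products of Rpl5 and Rpl11, can instead bind MDM2, the ligase that degrades p53. Quiescent satellite cells translate little and raise translation when they are activated.

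The tract can be read at the annotated starts of some members. The following windows run from 20 bases before the start to 15 bases of the transcript, from RefSeq on GRCm38.p6, and capitals mark the unbroken run of C and T around the first transcribed base. Rps6, Rps15a and Rps27 are shown because they carry a clear tract, and Rps27l because it had the largest difference between the groups and has no C at its annotated first base.
Rps6, chr4:86857353-86857387, minus strand: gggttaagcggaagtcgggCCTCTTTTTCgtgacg
Rps15a, chr7:118116133-118116167, minus strand: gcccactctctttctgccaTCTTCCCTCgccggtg
Rps27, chr3:90213634-90213668, minus strand: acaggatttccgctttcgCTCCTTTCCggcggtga
Rps27l, chr9:66946066-66946100, plus strand: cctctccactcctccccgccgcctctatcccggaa
In the Rps27l window the base after the starting G is a C that opens a run of 5 C or T, so the gene counts only where the C may lie near the start. A second annotated start of Rps27l also opened with G. Promoters of 61 members were in the table used. Of these, 13 (21.3%) had a start on a C that opened a run of at least 5 C or T on the transcribed strand, against 813 of 27025 genes (3.01%) and 0 of 66 mitochondrial ribosomal protein genes. With the C allowed within 5 bases of the annotated start, the shares were 45.9% of members, 21.2% of all genes and 25.8% of mitochondrial ribosomal protein genes. These are letters at annotated starts, and start sites in satellite cells were not measured.

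Signals are log2 values from which the 75th percentile of the same array was subtracted, so a value of 6 lies 6 doublings above that percentile. Because each array started from the same amount of RNA and was scaled, the values are shares of each sample's RNA, and fewer cells of a type cannot be told apart from less RNA per cell. A gene was tested if either group had its brightest probe well above background in all 3 mice. Of the 80 members 78 were tested, and all 78 were above background on all 6 arrays. Their probes were among the brightest on the array: by mean signal the median member lay at percentile 96.0 of all tested features, and 71 members lay at or above percentile 90. Probe brightness depends on the probe as well as the mRNA, so members are not ranked against each other here. Rpl10, a late-joining 60S protein at the peptidyl transferase centre, had the brightest probe, with 8.38, 8.61 and 8.37 in knockout 1, 2 and 3, against 8.39, 8.50 and 8.51 in control 1, 2 and 3. Its log2 difference, knockout minus control, was -0.01 (95% interval -0.47 to 0.45).

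Some facts of the whole series bear on every value below. Knockout 1 and 2 lay in row 1 of the slide, and knockout 3 lay with the 3 controls in row 2, so row and genotype are partly confounded. Knockout 3 stood apart: its score on the first principal component, with 29.5% of the variance, was 72.0, against -25.4 to -5.51 on the other 5 arrays. It also had the lowest share of probes well above background, 44.2%, against 51.7% to 57.9% on the others. The targeted gene, Psmc4, had signals of 2.05, 2.07 and 1.54 in knockout 1, 2 and 3, against 2.93, 2.61 and 2.87 in control 1, 2 and 3. The knockout values all lay below the controls (difference -0.92, SE 0.24, adjusted p = 0.421 by limma), and whether its probe lies in the deleted part is not known. Satellite cell markers were measured for 14 of 14 genes. Their centred mean was -0.09, -0.08 and -0.42 in knockout 1, 2 and 3, against -0.13, 0.46 and 0.26 in control 1, 2 and 3, so the lowest array was again knockout 3. Pax7, the defining transcription factor of these cells, was above background on 5 of 6 arrays, at -1.10, -1.09 and -1.61 in knockout samples, against -2.12, -1.31 and -0.88 in control samples. Of the 14 markers 9 had a difference below 0, and the median was -0.31. Every knockout sample lay below every control in 1077 of all 19199 features tested, and in 4 of these 14 markers. These were Calcr (-1.04), Fgfr4 (-0.90), Cxcr4 (-0.64) and Myf5, which was at -3.21, -3.80 and -3.77 in knockout samples, not well above background, against -2.11, -1.20 and -1.56 in control samples. None passed (limma, adjusted p between 0.188 and 0.615). The part of these markers in the results below was not tested. Markers of fibro-adipogenic progenitors and endothelial cells were measured as well, for 10 of 10 genes each. The mean signal of the fibro-adipogenic markers was 4.25 to 4.82 on the 6 arrays, against 0.79 to 1.68 for the satellite cell markers. Probes differ in brightness, so these means do not give shares of cells. Of the fibro-adipogenic markers, 2 of 10 lay lower in every knockout sample than in any control. The labels do not say whether mice of the groups were paired.

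No ribosomal protein mRNA passed the test between knockout and control cells, and most had differences close to 0. By limma over all 19199 features, 0 of 78 members were called at an adjusted p under 0.05, beside 0% of all features. At an unadjusted p under 0.05, 1 member was higher and 0 were lower, while 2.83% of all features were higher and 4.21% lower. The median log2 difference of the members was 0.07, beside 0.04 over all features, and the differences ran between -0.12 for Rps28 and 0.59 for Rps27l. Of the members 60 were above 0 and 18 below, which is 76.9% above 0 where all features had 56.3%. The members varied less around their median than other features: the SD of their differences was 0.108, against 0.433 over all features. The median SD over the 6 arrays was 0.16 for a member, against 0.35 for a feature in general. The members have brighter probes than most features, and the part of brightness in this narrowness was not tested.

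**Figure D1:**
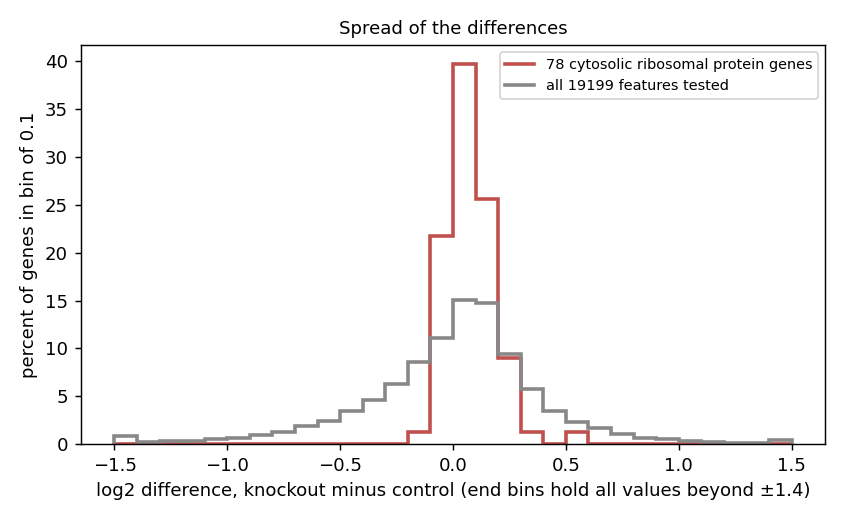
Distribution of the log2 difference, knockout minus control (x axis, bins of 0.1), as the percent of the 78 tested cytosolic ribosomal protein genes (red) and of all 19199 tested features (grey). The members fill a narrow range from -0.12 to 0.59 around a median of 0.07, while the features in general reach beyond 1.4 on both sides.

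The intervals limit how large a change could be. For 77 of 78 members the 95% interval lay within a 2-fold change in either direction, beside 62.9% of all features, and Rps27l was the exception, with an upper bound of 1.09. The intervals rest on 3 mice a group and on the spread that limma shares between features. The median standard error of a member was 0.21, against 0.27 over all features. A p that misses the threshold does not show equal levels, and a difference of the size of the median member, 0.07, is well within 1 standard error.

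**Figure D2:**
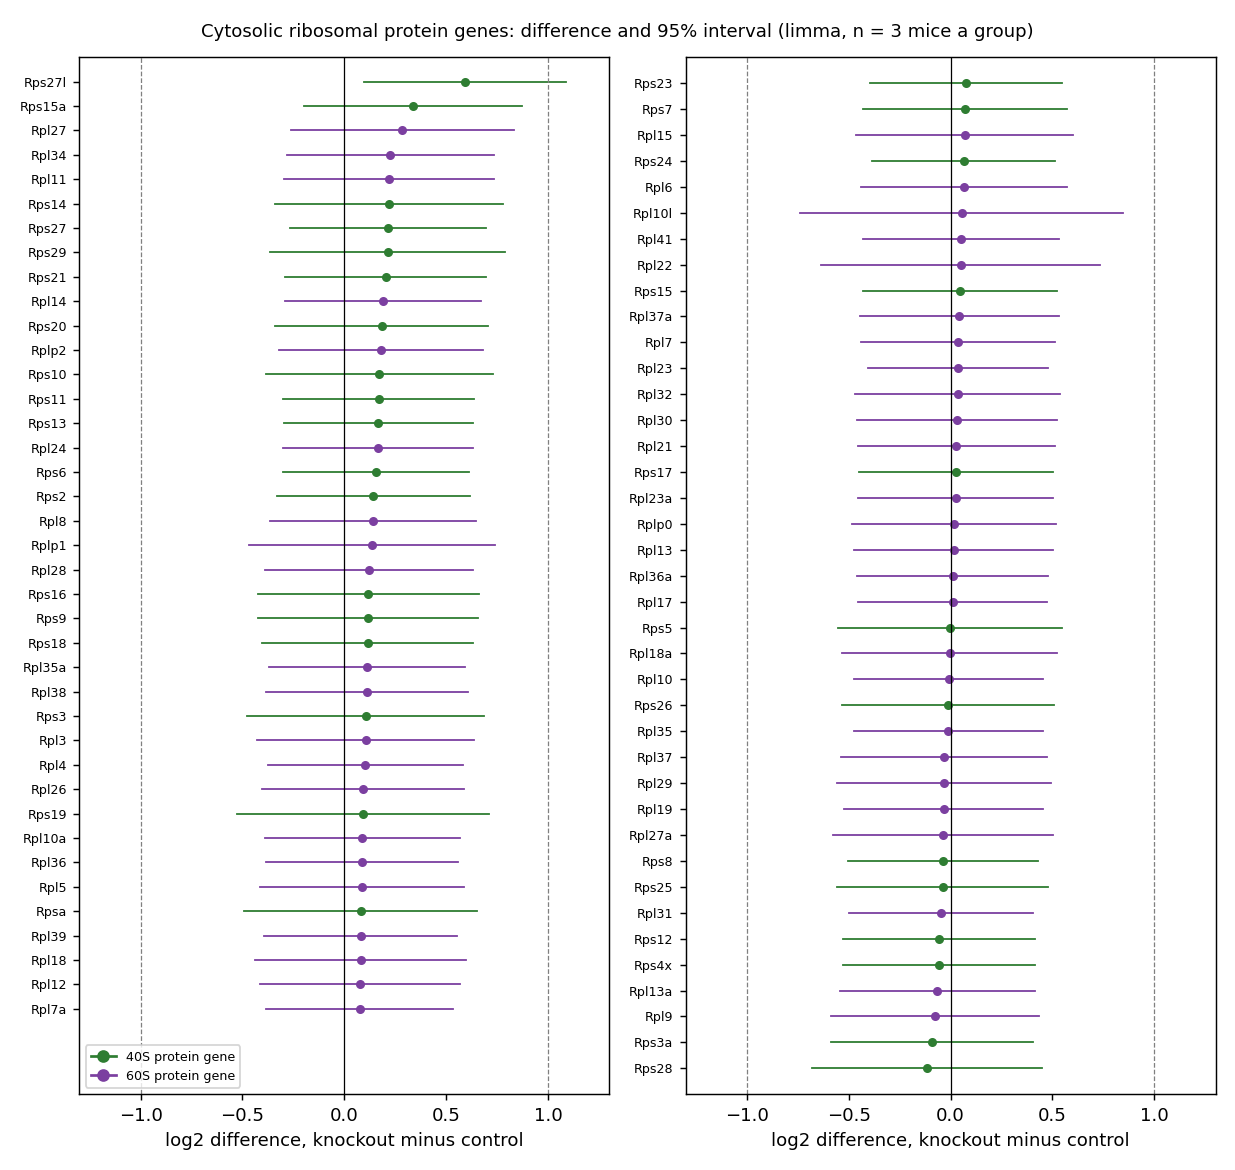
Log2 difference, knockout minus control (x axis), of each of the 78 tested genes with its 95% limma interval, 40S genes in green and 60S genes in purple, the 39 highest on the left and the 39 lowest on the right. Dashed lines mark a 2-fold change. Only the interval of Rps27l, 0.10 to 1.09, leaves out 0, and it is the one that reaches past a dashed line.

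The gene that stood out was Rps27l, which encodes a close paralog of the 40S protein of Rps27 and is known as a gene induced by p53. Its signal was 2.12, 2.14 and 1.79 in knockout 1, 2 and 3, against 1.42, 1.57 and 1.28 in control 1, 2 and 3. The 3 knockout values all lay above the 3 controls, the one member where the groups did not overlap (of all features, 10.7% did not overlap and 5.08% lay higher without overlap). The means were 2.02 ± 0.19 in knockout and 1.43 ± 0.14 in control cells (SD, n = 3 each), a log2 difference of 0.59 (SE 0.21) or 1.51-fold. It did not pass the threshold (limma, adjusted p = 0.610). By exact permutation p was 0.1, below which 3 mice against 3 cannot go. Its difference was above 0 in all of the 22 settings run, with values of 0.37 to 0.70 and adjusted p-values of 0.0736 to 0.987 by limma. Because the groups did not overlap, settings that left out or reweighted arrays could not change this sign. Rps6 was also above 0 in all 22 settings. Rps27l has 1 probe on the array, so no second probe could be compared. The mean of the red blood cell markers, of which 4 of 8 were measured, was also higher in every knockout sample than in any control. It was 1.17, 0.88 and 0.34 (centred) in knockout 1, 2 and 3, against 0.11, -0.93 and -1.57 in control 1, 2 and 3. Of the 4 markers, 3 had a difference above 0 and 2 lay higher without overlap. The part of these markers in the result was not tested.

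Rps27, whose zinc finger protein sits on the solvent side of the 40S subunit, had signals of 7.86, 8.02 and 7.66 in knockout 1, 2 and 3, against 7.55, 7.74 and 7.60 in control 1, 2 and 3, so the groups overlapped. The difference was 0.21 (SE 0.21, adjusted p = 0.975 by limma). The probes of the pair are shown because the proteins are closely alike while the probes are not: their longest common run, in capitals, is 5 bases.
Rps27l probe, chr9:66795486-66797176 in mm9, plus strand, across a splice junction: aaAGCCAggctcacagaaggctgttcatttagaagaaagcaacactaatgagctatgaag
Rps27 probe, chr9:114891672-114891731 in mm9, minus strand: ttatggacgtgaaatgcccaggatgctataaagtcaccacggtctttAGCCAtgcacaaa
The array annotation puts the Rps27 probe on chromosome 9, while RefSeq has the gene on chromosome 3, so the annotated site is not the gene itself. Rps27l and 3 other paralogs were also compared with their parent genes within each array, a comparison chosen after seeing the data. Rps27l minus Rps27 was -5.83 in knockout and -6.20 in control samples, so Rps27l lay closer to Rps27 by 0.38 in the knockout samples. The groups did not overlap (exact permutation p = 0.1, the smallest possible, and 0.2 adjusted over the 4 pairs). The corresponding change was 0.28 for Rpl22l1 over Rpl22, 0.19 for Rpl36al over Rpl36a and 0.06 for Rpl10l over Rpl10, with adjusted exact p between 0.2 and 1. With the Rpl36a probe used, the groups did not overlap for Rpl36al over Rpl36a either, with the same exact permutation p of 0.1. The other Rpl36a probes, also above background on all 6 arrays, had differences of -0.02 and 0.09, against 0.01 for the probe used. With either of them knockout 1 was the lowest array for Rpl36al over Rpl36a, so the groups overlapped. This separation therefore depends on the Rpl36a probe. A second Rpl22 probe of similar signal had a difference of 0.23, against 0.05 for the probe used. The change for Rpl22l1 over Rpl22 therefore depends on the Rpl22 probe.

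Among the 40S proteins, 23 of 31 were above 0, with a median difference of 0.10. Rps15a, a core 40S protein gene, came after Rps27l. It stood at 6.48, 6.55 and 5.99 in knockout 1, 2 and 3, against 5.91, 6.09 and 6.01 in control 1, 2 and 3, a difference of 0.34 (SE 0.23). Knockout 1 and 2 were above all controls and knockout 3 was among them. Rps14, whose protein lies near the decoding platform, had knockout 1 and 2 above and knockout 3 below all controls, with 4.83, 4.93 and 4.32 in knockout samples, against 4.42, 4.64 and 4.35 in control samples (difference 0.22, SE 0.24). Rps6, the classical substrate of the S6 kinases, had a steadier signal of 7.09, 7.18 and 6.98 in knockout samples, against 6.84, 6.93 and 7.02 in control samples. Its difference was 0.15 (SE 0.20, adjusted p = 0.981 by limma), and the groups overlapped only through control 3 and knockout 3. Rpsa, which encodes the 40S protein also known as the laminin receptor, stood at 5.19, 5.10 and 4.51 in knockout samples, against 4.85, 4.96 and 4.75 in control samples, and its difference was 0.08 (SE 0.25).

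At the lower end of the 40S genes, Rps28 had the most negative difference of all members, -0.12 (SE 0.24). Its signal was 4.65, 4.64 and 4.19 in knockout 1, 2 and 3, against 4.34, 4.84 and 4.65 in control 1, 2 and 3, so the groups overlapped. Rps3a (now Rps3a1), with a difference of -0.09, Rps4x, the X-linked member, with -0.06, and Rps12, with -0.06, had standard errors of 0.20 to 0.21. None of these differences exceeded the spread between mice.

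The 60S proteins had a median difference of 0.05, with 37 of 47 tested genes above 0. Rpl27 stood at 6.37, 6.37 and 5.79 in knockout 1, 2 and 3, against 5.85, 5.88 and 5.95 in control 1, 2 and 3. The controls lay within 0.1 of each other, and the difference of 0.29 (SE 0.24) came from knockout 1 and 2, as knockout 3 was the lowest of all 6. Rpl34 repeated this, with 7.48, 7.47 and 7.03 in knockout samples, against 7.13, 7.13 and 7.04 in control samples (difference 0.23, SE 0.22). Rpl9 and Rpl13a, the lowest of the 60S genes, had differences of -0.08 (SE 0.22) and -0.06 (SE 0.21). Rpl3, whose protein reaches the peptidyl transferase centre, differed by 0.10 (SE 0.23).

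Rpl5 and Rpl11 form a particle with 5S rRNA that joins the 60S subunit and, when free, binds MDM2. Rpl5 stood at 5.65, 5.81 and 5.38 in knockout samples, against 5.40, 5.63 and 5.56 in control samples, a difference of 0.09 (SE 0.22). Rpl11 stood at 5.22, 5.30 and 4.82 in knockout samples, against 4.76, 4.92 and 5.01 in control samples, a difference of 0.22 (SE 0.22). In both genes knockout 1 and 2 were above all controls, while knockout 3 was below control 2 and 3. Neither passed (limma, adjusted p = 0.981 for each).

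The stalk of the 60S subunit, built from Rplp0 and dimers of Rplp1 and Rplp2, recruits the elongation factors. Rplp2 differed by 0.18 (SE 0.22), Rplp1 by 0.14 (SE 0.26) and Rplp0 by 0.02 (SE 0.22), all with overlapping groups. Rplp0, which is often used as a reference gene in quantitative PCR, had signals of 4.91, 5.12 and 4.62 in knockout samples, against 4.82, 4.92 and 4.86 in control samples. Its mean hardly differed, 4.88 ± 0.25 in knockout and 4.87 ± 0.05 in control cells (SD, n = 3 each), but the knockout samples spread more widely than the controls.

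Of the tissue-restricted paralogs, Rpl3l and Rpl39l were at or near the limit of detection, and Rpl10l was measured on every array. Rpl3l replaces Rpl3 in ribosomes of mature striated muscle. Its probe was well above background on 0 knockout and 0 control arrays, at -5.08, -4.59 and -3.87 in knockout samples, against -4.66, -4.66 and -4.57 in control samples, below the lowest signal that counted as above background on each array (-3.10 to -2.44). Rpl39l, a paralog found mostly in testis, was above background on 1 knockout and 1 control array. These were the 2 members not tested, and no fold is given for them. Rpl10l, the autosomal retrogene of Rpl10 that acts in male germ cells, had the dimmest probe of the tested members. It stood at -0.05, 0.08 and 0.83 in knockout samples, against 0.44, 0.59 and -0.34 in control samples, a wide spread with a difference of 0.05 (SE 0.34). Rpl22, which is not essential for ribosome assembly in mice, also spread widely, with 3.39, 3.65 and 2.66 in knockout samples, against 2.96, 3.29 and 3.31 in control samples (difference 0.05, SE 0.30). Its second probe, of similar signal, had a difference of 0.23.

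The members varied together from array to array more than they varied by genotype. With each gene centred on its own mean, the mean of the 78 members was 0.09, 0.20 and -0.17 in knockout 1, 2 and 3, against -0.11, 0.05 and -0.07 in control 1, 2 and 3. The controls lay between the knockout samples. Knockout 2 was the highest array for 56 of 78 members, beside 15.5% of all features, and knockout 3 was the lowest for 51 of 78, beside 26.3% of all features. For the median member, Pearson's r across the 6 arrays with the mean of the other members was 0.87, and 58 of 78 (74.4%) had an r above 0.8. With the same mean, 12 of 23 tested translation factors with TOP mRNAs and other ribosome partners (52.2%) had such an r. The share was 6.46% of all features, 6.15% of the mitochondrial ribosomal protein genes and 6.25% of the 16 tested initiation factor genes. It was 13.3% in both the ribosome biogenesis and the growth signalling lists, and 25% (2 of 8) of the RNA polymerase I genes. The members have brighter probes than most features, and the part of brightness in these shares was not tested. These correlations describe arrays that share scaling and amplification, and the 40S and 60S genes had nearly the same pattern.

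**Figure D3:**
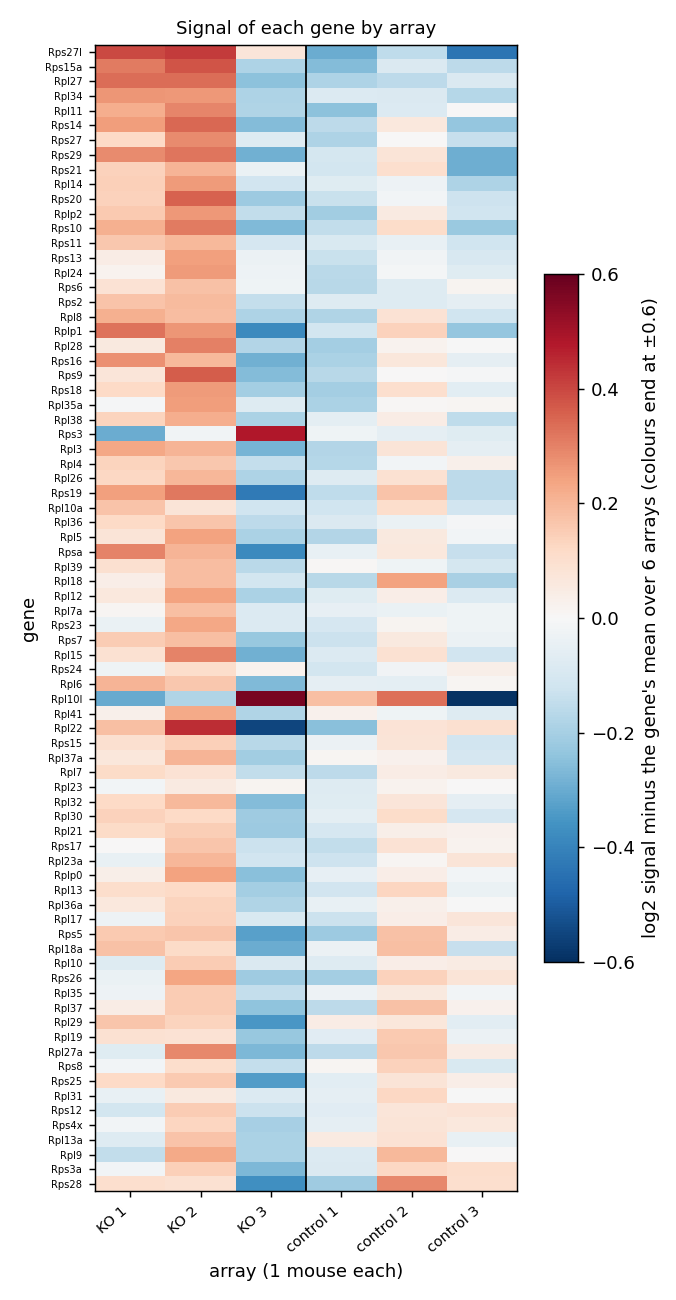
Each row is 1 of the 78 tested genes, ordered from the highest to the lowest difference, and each column 1 array, knockout left of control. Colour gives the log2 signal minus the gene's mean over the 6 arrays, with colours ending at 0.6 on both sides. Most rows are red in knockout 2 and blue in knockout 3, and Rps3 and Rpl10l run against this.

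The direction of the group difference therefore rested on which knockout samples entered. Knockout 1 and 2, from slide row 1, against the 3 controls gave a median member difference of 0.17 with 74 of 78 above 0. Knockout 3, from the same slide row as the controls, gave a median of -0.15 with 10 of 78 above 0. A block for slide row, or a fit on row 2 alone, leaves knockout 3 as the only knockout sample that counts, and both gave a median of -0.15. Without knockout 2 the median was -0.00048, with 39 of 78 above 0. Slide row, the lone knockout sample in row 2 and genotype cannot be told apart in these arrays. Neutrophil markers, of which 4 of 9 were measured and 1 was above background on all 6 arrays, had the same order among the knockout samples. Their centred means were 1.39, 1.46 and -1.16 in knockout 1, 2 and 3, against -0.45, -0.37 and -0.87 in control 1, 2 and 3. The neutrophil mean signal in knockout 3, -2.25, lay near the lowest above background there, -2.44. Endothelial markers stood at 0.41, 0.78 and -0.70 in knockout samples, against 1.02, -0.49 and -1.03 in control samples. Mature muscle fibre markers (0.26, 0.68 and -0.82 in knockout samples) and fibro-adipogenic progenitor markers (0.07, 0.08 and -0.36) had this order too. So did satellite cell and pericyte markers. Macrophage, Schwann cell and red blood cell markers were highest in knockout 1, and lymphocyte markers in knockout 3. Whether RNA of these cells had a part in the shared pattern was not tested.

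The scaling moved the shared pattern in part. Knockout 3 had the lowest member mean with median scaling, quantile normalization, normexp background correction and in the deposited value table. Scaled on the probes above background on all arrays, control 1 was lowest at -0.10, with knockout 3 at -0.09. Knockout 2 had the highest member mean in all of these except normexp, where knockout 1 was highest. Median scaling put 65 of 78 members above 0, normexp 50 and quantile normalization 46, with median differences of 0.10, 0.04 and 0.02.

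Rps3, whose 40S protein also takes part in DNA repair, ran against the others, and its probes differed from each other. The brightest one gave 7.12, 7.39 and 7.89 in knockout 1, 2 and 3, against 7.39, 7.36 and 7.34 in control 1, 2 and 3, with knockout 3 the highest array. Its r with the mean of the other members was -0.63, the lowest of all members, followed by Rpl10l at -0.45. The second probe gave 4.11, 4.04 and 3.47 in knockout samples, against 3.85, 4.04 and 3.82 in control samples. The remaining probe gave 3.98, 3.99 and 3.37 in knockout samples, against 3.71, 3.85 and 3.58 in control samples. In both of these probes knockout 3 was the lowest array, as in most members. The brightest probe lies 918 bases further 3′ on the minus strand of chromosome 7 than the second. The remaining probe has no position in the array annotation, and the chromosome given for it below is that of the RefSeq gene. The last 30 bases of each probe are shown, with capitals for AATAAA, the letters of the most common polyadenylation signal (overlapping copies run together).
Rps3 probe A_55_P2038237, chr7:106626430-106626489 in mm9: ctctgcctcagggtattatgAATAAAgtgt
Rps3 probe A_55_P2109222, chr7:106627408-106627786 in mm9: gatgctaccttgtaaagacatttAATAAAa
Rps3 probe A_51_P318640, chromosome 7: AATAAAATAAAgacgatttAATAAAatctt
The letters were in 54 of the 183 member probes, and in 10.1% of all probes on the given strand. The knockout minus control difference was 0.10, -0.03 and 0.06 for the 3 probes, so the choice of probe changed the sign but not the call.

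**Figure D4:**
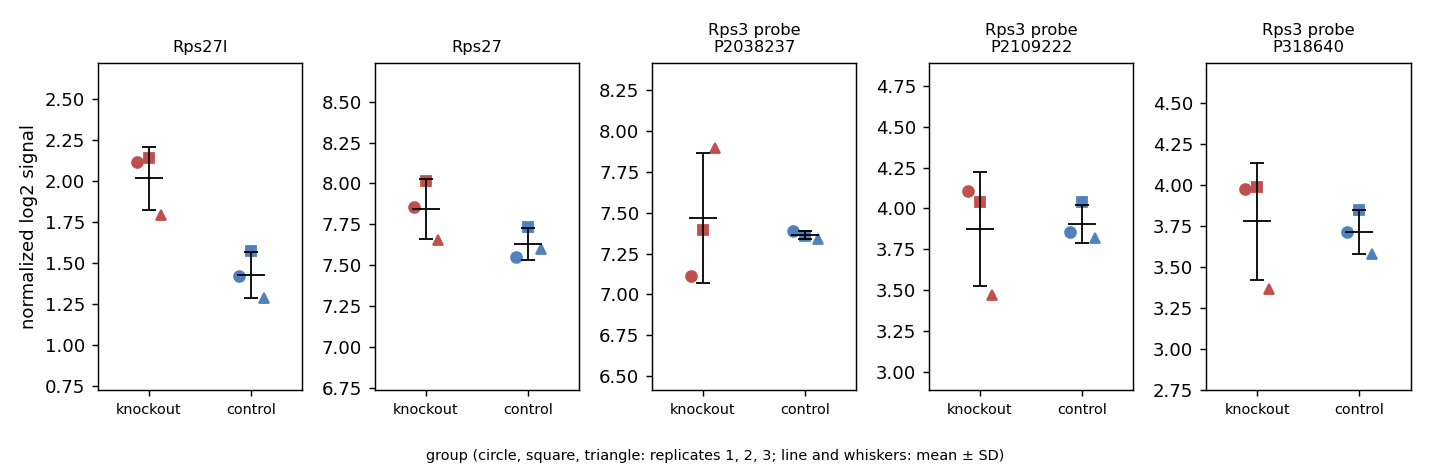
Normalized log2 signal (y axis, each panel spanning 2 units) of Rps27l, Rps27 and the 3 Rps3 probes in knockout (left, red) and control (right, blue) samples, with replicates 1, 2 and 3 as circle, square and triangle, and mean ± SD in black. Rps27l separates the groups, at 1.79 to 2.14 in knockout and 1.28 to 1.57 in control samples, and the knockout 3 triangle is at the top of the first Rps3 panel and at the bottom of the other two.

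The array held 183 probes for the 80 members, with 22 genes on 1 probe and up to 7 probes for a gene. Among 56 genes with at least 2 probes above background on all 6 arrays, the differences of a gene's probes ranged over a median of 0.07, and 11 genes had probes of opposite sign. The widest range, 0.71, was in Rpl6, where a dim probe gave 0.70 and the other probes lay between -0.02 and 0.07. Ribosomal protein genes have many processed pseudogenes. Of the 80 probes that stood for a gene, 34 shared a run of at least 20 bases with a probe of another gene name, and 4, for Rpl13, Rps27, Rps29 and Rps4x, were annotated on another chromosome than the RefSeq gene. Signal from such copies cannot be told apart from the gene in these probes. No member spot was saturated: the count was 0.

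Genes that work with ribosomes outside the name rule behaved in part like the members. Of 23 tested translation factors with TOP mRNAs and other ribosome partners, 0 were called, 18 were above 0, and the median difference was 0.07. Their centred mean was 0.12, 0.19 and -0.20 in knockout 1, 2 and 3, against -0.09, 0.01 and -0.04 in control 1, 2 and 3. Rps27a, which encodes a 40S protein fused to ubiquitin, differed by 0.15 (SE 0.23). Fau, which encodes the 40S protein eS30 fused to a ubiquitin-like domain, differed by 0.10 (SE 0.22). Rack1, a scaffold on the 40S head, differed by 0.03 (SE 0.25). The smallest p in this list belonged to Rpl22l1, the paralog of Rpl22, with 0.33 (SE 0.23), and Eef1b2, an exchange factor for the elongation factor eEF1A, with -0.20 (SE 0.21).

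**Figure D5:**
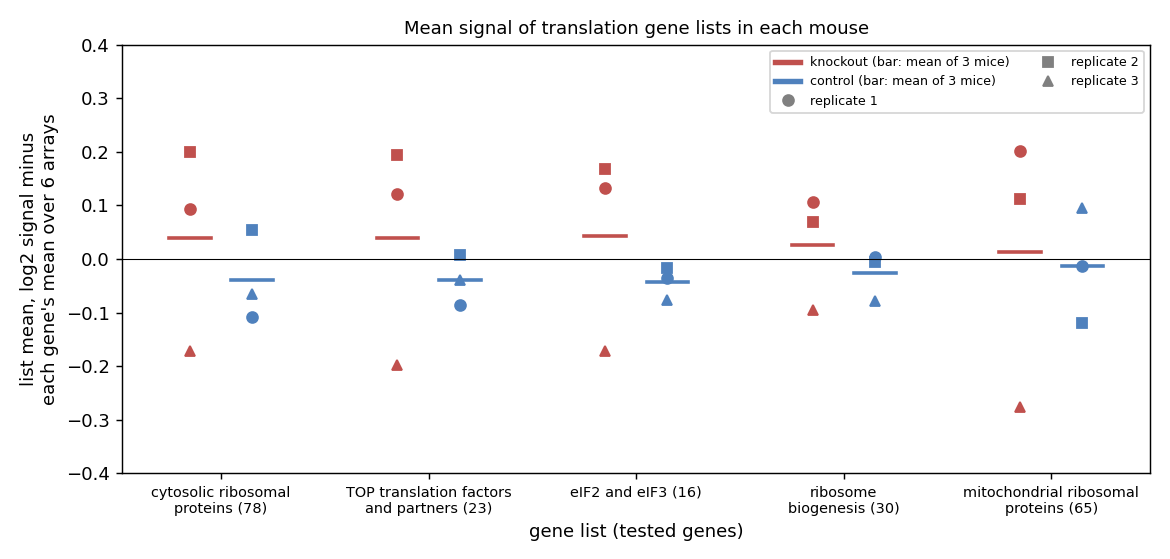
Mean of each gene list (y axis, log2 signal minus each gene's mean over the 6 arrays) in each mouse, knockout in red left of control in blue, with replicates 1, 2 and 3 as circle, square and triangle and bars for the mean of 3 mice. In all 5 lists knockout 3 is the lowest array, at -0.17 for the cytosolic ribosomal proteins and at -0.28 for the mitochondrial ones.

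The mitochondrial ribosomal proteins, which build the separate ribosome of that organelle, spread more. Of 65 tested genes 0 were called, 36 were above 0, the median difference was 0.02 and the SD of differences 0.253. Mrps30, with 0.58 (SE 0.26), and Mrps22, with 0.57 (SE 0.30), had the smallest p. The centred mean was 0.20, 0.11 and -0.28 in knockout 1, 2 and 3, against -0.01, -0.12 and 0.10 in control 1, 2 and 3. Of the 16 tested initiation factor genes, 0 were called and 9 were above 0, with a median difference of 0.04. Among these, Eif6, whose protein keeps free 60S subunits from joining, stood at 2.58, 2.38 and 1.99 in knockout samples, against 1.89, 1.77 and 1.57 in control samples. The groups did not overlap, and the difference of 0.58 (SE 0.24) did not pass (limma, adjusted p = 0.676). In this list 2 of 16 genes lay higher without overlap, beside 5.08% of all features. The other was Eif3j, with a difference of 0.15 (SE 0.19). Eif3d, a cap-binding subunit of eIF3, differed by 0.34 (SE 0.22).

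Genes upstream of the ribosome also had no calls. Of 30 tested ribosome biogenesis genes 0 were called, 18 were above 0, and the median difference was 0.08. Utp15, a factor of early 18S rRNA processing, differed by 0.74 (SE 0.36), and Rrp9, a U3 snoRNP protein, by -0.46 (SE 0.23). Of 8 tested RNA polymerase I genes 0 were called and 5 were above 0. In that list Polr1b, the second largest subunit, differed by -0.99 (SE 0.59), and Taf1d, a subunit of the selectivity factor SL1, by 0.33 (SE 0.26). Of 15 tested genes of growth signalling to ribosomes 0 were called, 5 were above 0, and the median difference was -0.08. Mtor, the kinase of TOP mRNA control, differed by -0.60 (SE 0.30, adjusted p = 0.813 by limma), and Tsc1, its upstream inhibitor, by -0.55 (SE 0.32). Larp1 differed by -0.22 (SE 0.22). None of these differences passed the threshold over all features.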

How the data were processed

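The scanner files, 1 an array, give linear intensity values that were background-corrected by Agilent Feature Extraction 10.7.1.1 per the file headers (9.5.1.1 per the submitters' processing notes). The deposited value table, with intensity values of equal quantiles (median 17.7 on every array), served as an alternative. From the scanner files, control and outlier-flagged spots were left out, spots of a probe averaged, log2 taken and each array's 75th percentile subtracted. The brightest of a gene name's probes stood for it. Groups were compared with limma 3.58.1 in R 4.3.3 over all 19199 features, Benjamini-Hochberg adjusted at 0.05, 2-sided. Probe positions are mm9, and symbols and promoters are RefSeq's on GRCm38.p6, with all 80 members matched. Named genes were the 6 largest differences each way, the 4 smallest p, fixed members of each role, the highest and lowest signal, the untested ones and 2 per other list. The members and lists were chosen with earlier results of these data known. Data were simulated with 19199 features, of which 200 were changed. Of 2-fold changes 8.15% were recovered, of 4-fold changes 61.7% and of 8-fold changes 83.9%. Of the calls 3.72% were false, and 94.0% of intervals held the true value. These rates are for features in general, and none was obtained for the members, which varied less. Alternatives were other scalings, background corrections, filters, probe rules, weights, blocks and each array left out. Replicate numbers were not taken as pairing: same-numbered arrays correlated at 0.07, -0.02 and 0.09.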

Additional observations from a re-analysis of the deposited data

How the results depend on the processing

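The number of members called stayed at 0 under every alternative. With the replicate number as a block it was also 0, 0 of all features were called, and the median member difference was 0.07; 2 of 3 pairs correlated best with their own number. Of all features, 1 was called with quantile normalization, 2 with median scaling, 1 in the deposited table, 1 with an intensity trend and robust moderation, and 169 with array weights. With array weights the median member difference was 0.20, and 76 of 78 members were above 0. The median member difference was -0.15 in both slide-row fits (row as a block, and row 2 alone), and -0.00048 without knockout 2; the share above 0 was then 12.8% in both slide-row fits, and the difference of the array means was -0.13 in both. Members with an unadjusted p under 0.05 numbered 10 with array weights, and 0 without the filter on dim probes, in both slide-row fits. Leaving out each array in turn gave a median between -0.00048 and 0.17, 50% to 94.9% of members above 0, a difference of the array means of 0.00 to 0.19, 0 to 3 members with an unadjusted p under 0.05, and 0 to 0 calls. Among the 23 named members, 485 of 485 comparisons with an alternative stayed on the same side of the adjusted threshold. The other Rps3 probes and the second-brightest probe of 56 members were chosen after seeing the data. With 3 arrays a group, small changes are not detectable gene by gene, and knockout 3 carries the slide-row fits alone.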
